A study of Mus musculus with 2 samples.

Results

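Open chromatin regions in which no DNase footprint was listed were the subject here: 1078 of 43667 eligible regions (2.47%) of the mouse adrenal gland. DNase-seq records the positions at which DNase I, an enzyme added to nuclei, has cut the DNA. A peak is a stretch cut more than its surroundings, and a footprint is a short stretch inside open DNA that is cut less than the bases beside it. Adrenal glands of adult males of B6CASTF1/J, an F1 hybrid, were the source of both libraries. At collection the mice were 18 to 20 months old, and the libraries form 1 group with biological replicate numbers 1 and 2. Each library has its own tissue sample in the labels but both name 1 donor entry, which leaves unstated whether 1 animal or several gave the tissue. No treatment, genotype contrast or control group was part of the design. The gland holds the cortex, which makes steroid hormones, and the medulla, whose chromaffin cells make catecholamines.

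The members were chosen from the readout. Overlapping peaks of both libraries were merged by at least 1 bp into 143793 regions, of which 65778 held a peak of each library. In 43667 of these the highest peak had a height of 0.7 or more in each library. Height is the authors' signal normalised for depth, and the threshold of 0.7 belongs to the selection rule. Of these eligible regions, 1078 overlapped no listed footprint of either library, and the other 42589 are called footprinted. Height and footprints were therefore used by the rule and are given as a description, while position, sequence and the surrounding landscape were not used. Since regions of 1 tissue are not replicates, shares carry exact Clopper-Pearson 95% intervals that cover counting error only, and no p-value was computed.

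DNase I footprints are read as stretches that a bound protein shields from cutting. Proteins that stay on DNA for a long time and cover a fixed stretch, such as CTCF, which holds chromatin loops together, leave clear footprints. Proteins that come and go quickly leave shallow ones, and calling any footprint needs enough cuts. Active promoters are usually the most open sites of a genome, with a nucleosome-free stretch at the start of transcription and ordered nucleosomes downstream of it. CpG islands, stretches rich in C, G and the CpG dinucleotide, cover many mouse promoters.

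Pairs of sequences show what the regions looked like in the GRCm38 (mm10) reference. Each pair gives a footprint-free region and the tallest eligible region within 1 kb of it, called its neighbour. Capitals mark bases inside a listed footprint of both libraries, so the footprint-free region has none. The first pairs are the highest within 1 kb of a protein-coding transcript start in which neither printed stretch held more than 30 bases of annotated UTR. Zkscan5 encodes a zinc finger protein with KRAB and SCAN domains, and Sh3glb1 encodes a membrane-bending protein of autophagy and mitochondria.
Zkscan5 footprint-free region: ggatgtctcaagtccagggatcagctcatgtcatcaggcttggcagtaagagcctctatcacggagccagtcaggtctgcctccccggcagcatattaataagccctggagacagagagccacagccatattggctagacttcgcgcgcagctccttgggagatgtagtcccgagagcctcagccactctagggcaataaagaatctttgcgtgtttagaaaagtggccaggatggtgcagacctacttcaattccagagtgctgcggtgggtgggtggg
Zkscan5 taller neighbour: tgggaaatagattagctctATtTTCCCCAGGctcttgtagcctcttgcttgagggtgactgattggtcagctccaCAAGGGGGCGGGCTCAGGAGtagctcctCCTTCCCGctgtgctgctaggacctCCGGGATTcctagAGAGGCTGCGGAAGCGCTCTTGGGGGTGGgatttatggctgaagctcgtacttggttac
Sh3glb1 footprint-free region: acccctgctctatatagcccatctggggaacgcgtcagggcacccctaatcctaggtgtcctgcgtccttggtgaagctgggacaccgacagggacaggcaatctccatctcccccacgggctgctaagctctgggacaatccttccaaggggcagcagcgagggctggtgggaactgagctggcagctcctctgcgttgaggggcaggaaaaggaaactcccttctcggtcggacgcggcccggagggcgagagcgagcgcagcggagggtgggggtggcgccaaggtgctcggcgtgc
Sh3glb1 taller neighbour: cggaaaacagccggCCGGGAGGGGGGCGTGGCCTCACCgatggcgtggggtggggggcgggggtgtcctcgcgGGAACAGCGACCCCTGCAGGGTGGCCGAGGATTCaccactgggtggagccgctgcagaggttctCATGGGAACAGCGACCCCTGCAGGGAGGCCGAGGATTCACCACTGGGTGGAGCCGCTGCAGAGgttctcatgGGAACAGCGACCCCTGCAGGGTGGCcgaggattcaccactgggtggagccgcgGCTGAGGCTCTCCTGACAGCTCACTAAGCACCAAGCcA
The Zkscan5 footprint-free region (chr5:145203941-145204220, whole) had heights of 1.75 and 2.21 in replicates 1 and 2, and its neighbour (chr5:145204341-145204540, whole) had 5.21 and 6.22. The gap between them was 120 bp. The neighbour held 7 footprints in replicate 1 and 5 in replicate 2, with 76 of its 200 bases inside a footprint of both. The Sh3glb1 footprint-free stretch (chr3:144719421-144719720, the central 300 of a region of 500 bp) had heights of 1.89 and 1.65. Its neighbour (chr3:144720371-144720670, the central 300 bases) had 12.9 and 9.43, with 183 bases inside a footprint of both. The printed Sh3glb1 neighbour holds near-identical copies of the same stretch in tandem, and many of these 183 bases lie in the copies. Unique sequence was not required of neighbours, and whether the repeat bears on the footprints listed there was not tested. Each low region thus lay beside a taller one in which listed footprints were dense.

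The next pairs are the highest more than 1 kb from any protein-coding transcript start in which every 31-base stretch of the footprint-free region occurs once in the reference. The nearest starts were those of Creb3l1, which encodes a transcription factor held in the endoplasmic reticulum membrane, and Ern1, which encodes the stress sensor IRE1 of the same organelle. Both regions were intergenic, and nearness of a start does not assign a region to a gene.
Creb3l1 footprint-free region: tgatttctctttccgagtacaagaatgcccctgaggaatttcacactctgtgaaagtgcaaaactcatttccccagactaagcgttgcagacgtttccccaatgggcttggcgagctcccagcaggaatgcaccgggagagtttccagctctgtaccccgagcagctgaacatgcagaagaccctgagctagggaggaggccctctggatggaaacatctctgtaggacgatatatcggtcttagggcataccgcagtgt
Creb3l1 taller neighbour: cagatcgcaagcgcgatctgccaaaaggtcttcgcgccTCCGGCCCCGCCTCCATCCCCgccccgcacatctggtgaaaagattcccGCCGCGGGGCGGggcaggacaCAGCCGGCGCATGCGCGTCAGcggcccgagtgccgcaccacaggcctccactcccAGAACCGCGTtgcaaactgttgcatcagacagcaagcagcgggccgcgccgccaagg
Ern1 footprint-free region: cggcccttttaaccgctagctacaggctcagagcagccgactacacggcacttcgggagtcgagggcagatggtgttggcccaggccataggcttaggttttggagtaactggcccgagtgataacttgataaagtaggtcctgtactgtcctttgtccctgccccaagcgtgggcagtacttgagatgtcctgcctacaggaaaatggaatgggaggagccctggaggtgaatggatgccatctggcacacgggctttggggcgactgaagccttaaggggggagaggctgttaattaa
Ern1 taller neighbour: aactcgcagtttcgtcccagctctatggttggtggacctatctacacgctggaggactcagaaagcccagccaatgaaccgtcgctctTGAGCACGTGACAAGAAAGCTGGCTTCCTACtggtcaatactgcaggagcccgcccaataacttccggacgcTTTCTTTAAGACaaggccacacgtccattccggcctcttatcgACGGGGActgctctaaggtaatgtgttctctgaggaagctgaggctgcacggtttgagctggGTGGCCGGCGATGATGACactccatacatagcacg
The Creb3l1 footprint-free region (chr2:92055861-92056120, 31359 bp from the start) had heights of 1.30 and 2.16, and its neighbour (chr2:92055421-92055640) had 5.51 and 4.78. The Ern1 footprint-free stretch (chr11:106501351-106501650, 13485 bp from the start) had 1.66 and 1.68, and its neighbour (chr11:106500721-106501020) had 4.51 and 4.6. The neighbours held 64 and 68 bases inside a footprint of both libraries. The Creb3l1 footprint-free region held 9 CpG in 260 bases, against 26 in the 220 bases of its neighbour.

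Height was part of the rule, and the footprint-free regions were low. They had median heights of 1.10 in replicate 1 (quartiles 0.897 and 1.32, range 0.701 to 3.20) and 1.07 in replicate 2 (quartiles 0.907 and 1.28, range 0.705 to 2.52). Footprinted regions had medians of 1.78 and 2.02, and reached 72.2 and 79.4. The highest lower height of the 2 libraries in any footprint-free region was 2.52. By that definition, all 14275 eligible regions above it were footprinted. The 28314 footprinted regions at or below 2.52 are therefore given as a second set for comparison, called footprinted regions of the same height range.

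The share of eligible regions without a footprint was flat at low heights and then fell away. It was 5.21% of the 4166 regions with a lower height of 0.7 to 0.8, 5.35% of those from 0.8 to 1.0 and 5.79% of those from 1.0 to 1.2. It was 3.45% from 1.2 to 1.5, 1.33% from 1.5 to 2.0 and 0.116% (5 of 4295) from 2.0 to 2.6. Against width the share ran the other way over most of the range, although a wider region has more room for a footprint. It was 0.233% of regions up to 200 bp wide, 4.32% of those over 260 and up to 320 bp, 8.67% of those over 500 and up to 700 bp, and 5.56% of wider ones. Median width was 382.5 bp in footprint-free regions, against 220 bp in footprinted regions and 200 bp in those of the same height range.

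**Figure D1:**
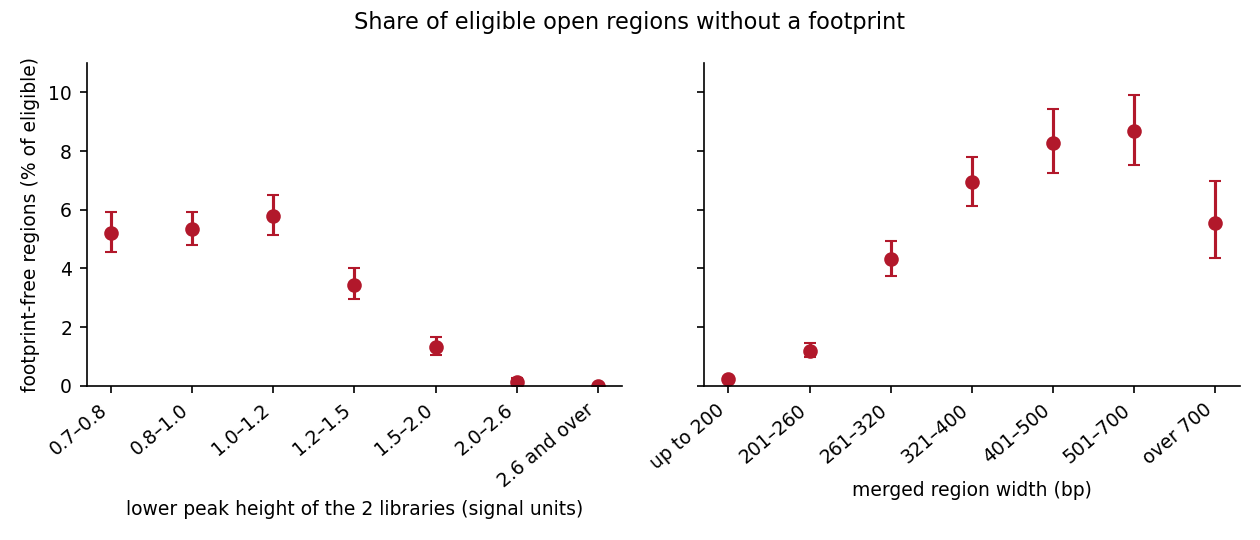
Percent of eligible regions without a footprint, by the lower peak height of the 2 libraries (left, signal units) and by width of the merged region (right, bp); points are shares and bars exact 95% binomial intervals. The share is 5.79% at a height of 1.0 to 1.2, and it is 8.67% over 500 and up to 700 bp. It is 0 of 13813 from 2.6 on, which lies above the highest lower height of a footprint-free region (2.52).

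The heights of a footprint-free region were alike in the 2 libraries, although the rule itself asked for 0.7 or more in both. The median log2 ratio of replicate 1 to replicate 2 was 0.03 (quartiles -0.17 and 0.23, range -1.07 to 0.88), and 579 of 1078 (53.7%) were higher in replicate 1. In footprinted regions the median was -0.08, with 40.6% higher in replicate 1. The most uneven regions were an intronic one at Cramp1l (1.51 and 0.825 in replicates 1 and 2) and one at Lrrc59 (0.717 and 1.5). Next to them stood Zfat (2.00 and 1.09) and Sec24c (0.850 and 1.55).

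**Figure D2:**
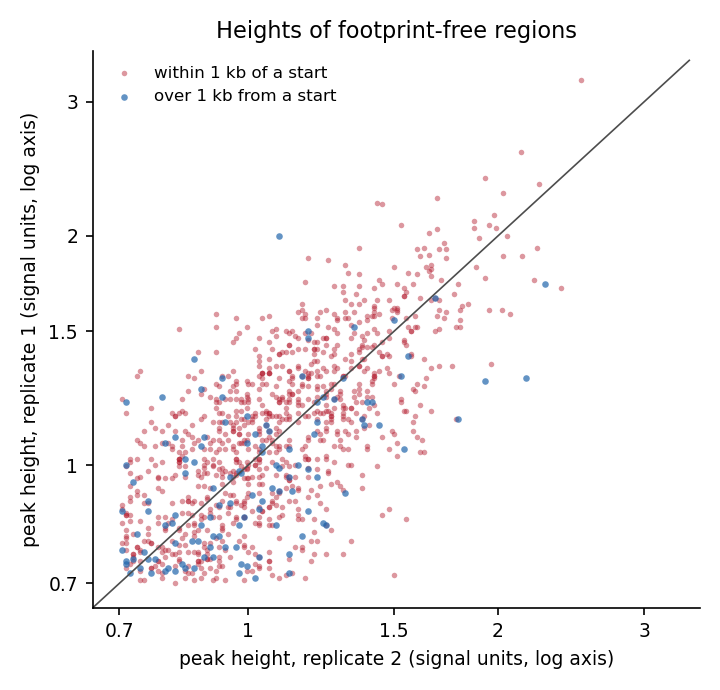
Peak height of each of the 1078 footprint-free regions in replicate 1 (y) against replicate 2 (x), both in signal units on log axes, with the line of equal heights; colour gives the distance to the nearest protein-coding start. Points scatter on both sides of the line, with 53.7% higher in replicate 1.

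Absence of a footprint recurred only in part between the libraries. Of the eligible regions, 2122 (4.86%) had no footprint in replicate 1 and 2152 (4.93%) had none in replicate 2. The 1078 free in both were 50.8% of the first and 50.1% of the second. A further 909 regions held exactly 1 footprint over both libraries together, and 1643 held 2, while footprinted regions held a median of 3 in each library. For those regions membership turned on 1 or 2 listed intervals.

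The height threshold also cut through similar regions. Just inside it were B4galt6 (0.701 and 0.817 in replicates 1 and 2), Dyrk3 (0.839 and 0.705) and Spop (0.775 and 0.705). Just outside it, without a footprint and with 0.697 in replicate 2, were regions near Nanos1 (0.940 in replicate 1), Nr6a1 (0.802) and Dcbld2 (1.15). Heights came in whole steps, and if 1 step is 1 cut, the threshold stood at 132 cuts in replicate 1 and 93 in replicate 2. The median footprint-free region then held 208 and 143 cuts at its highest point. Whether this number of cuts limited the listing of footprints was not tested.

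Most footprint-free regions were at promoters. Within 1 kb of a protein-coding transcript start lay 961 of 1078 (89.1%, 95% interval 87.1 to 90.9%), against 41.5% of footprinted regions and 29.2% of those of the same height range. The difference from footprinted regions was 47.7 percentage points, and 42.6% of all eligible regions lay that close to a start. Of the rest, 18 had their centre in an exon, 41 in an intron and 58 between protein-coding genes. Seen the other way, 5.16% of the 18618 eligible regions near a start were footprint-free, against 0.921% of exonic, 0.389% of intronic and 0.462% of intergenic ones.

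The excess near starts was present in each height and width class and was smallest, in percentage points, among wide regions. With a lower height of 0.7 to 1.0, 85% of footprint-free and 21.4% of footprinted regions lay within 1 kb of a start. From 1.0 to 1.5 the shares were 93.0% and 29.4%, and from 1.5 up to 2.52 they were 97.4% and 37.4%. Among regions up to 200 bp wide they were 24 of 48 and 9.0%, and from over 200 up to 300 bp 87.3% and 35.2%. Over 300 bp wide, the class of 794 of the 1078, they were 92.1% and 62.8%. All shares for footprinted regions here are of the same height range.

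Near starts, the footprint-free regions lay mainly downstream, over the first stretch of the gene. Of the 961, 689 (71.7%, 68.7 to 74.5%) had their centre more than 150 bp downstream of the nearest start, 123 (12.8%) within 150 bp of it and 149 (15.5%) more than 150 bp upstream. Footprinted regions of the same height range had 37.9% downstream, 44.2% within 150 bp and 17.9% upstream. A centre more than 150 and up to 600 bp downstream was found for 51% of footprint-free and 23.3% of those footprinted regions. Counting any distance, 79.4% of footprint-free regions near starts had their centre downstream, against 57.8% of footprinted regions near starts of the same height range and 66.9% of those that were also beside a taller region. Against all footprinted regions near starts (41.6%) the difference was 37.8 percentage points.

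**Figure D3:**
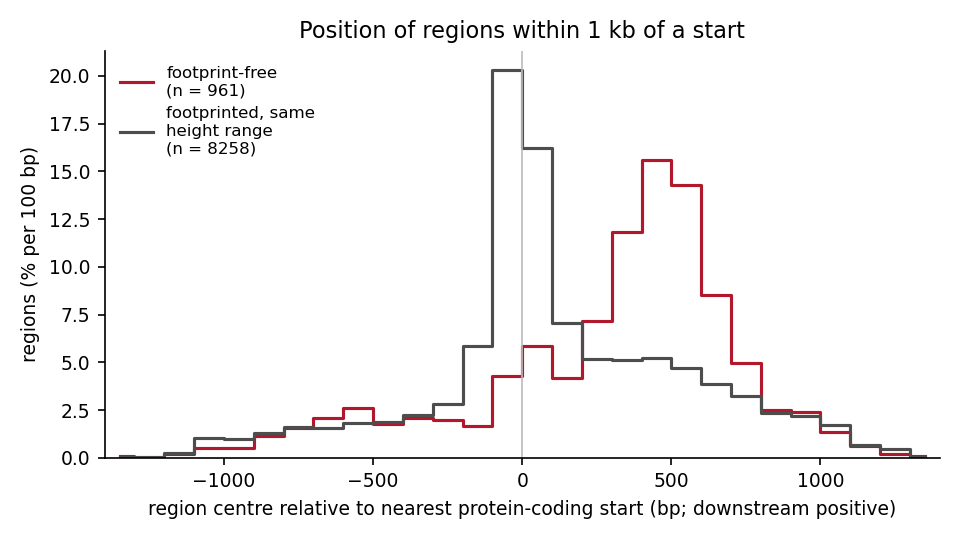
Percent of regions per 100 bp by the position of the region centre relative to the nearest protein-coding start (bp, downstream positive), for 961 footprint-free regions and 8258 footprinted regions of the same height range, all within 1 kb of a start. The footprint-free curve is highest 400 to 600 bp downstream, and the footprinted curve at the start itself.

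The pairs printed above stood for nearly the whole set. An eligible region lay within 1 kb of 1050 of the 1078 footprint-free regions (97.4%), against 33.6% of footprinted regions and 29.8% of those of the same height range. In 1048 (97.2%) this neighbour was taller, against 17.6% of footprinted regions, a difference of 79.6 percentage points. The neighbour was itself footprinted in 1048 of 1050, as in 8328 of 8429 footprinted regions of the same height range with a neighbour (98.8%), so this is not particular to footprint-free regions. The rule kept low regions, for which a taller neighbour is likelier, and in the same height range 21.6% of footprinted regions had one. Position mattered too, since footprint-free regions were mostly near starts. There, 958 of 961 footprint-free regions had a taller neighbour, against 3958 of 8258 footprinted regions of the same height range. The comparison with neighbours was chosen after the values were seen.

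The neighbours were among the tall regions of the tissue. Their median height was 5.47, and they stood at a median of 4.78 times the height of the footprint-free region (quartiles 3.6 and 6.13), across a median gap of 240 bp (quartiles 140 and 380). The ratio was 1.64 for footprinted regions of the same height range with a neighbour. Near starts the median ratios were 4.81 for footprint-free regions and 1.95 for footprinted regions of the same height range. The cut rate stayed above the background across the gap as well. Of regions with a neighbour, every base of the gap was listed at a false discovery rate under 0.05 in the authors' deposited file for 94.9% of the 1050 footprint-free ones in replicate 1 and 95.9% in replicate 2. The shares were 56.3% and 64.4% of the 14322 footprinted ones, and 44.1% and 53.9% of the 8429 in the same height range. The longest listed stretch that overlapped the region ran over a median of 1326.5 bp in replicate 1 and 1477.5 bp in replicate 2, against 339 and 444 bp for footprinted regions. The difference was smaller among like regions. Beside a taller region and near a start, the medians were 1351.5 and 1515.5 bp for footprint-free regions, against 1082 and 1304 bp for footprinted regions of the same height range.

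**Figure D4:**
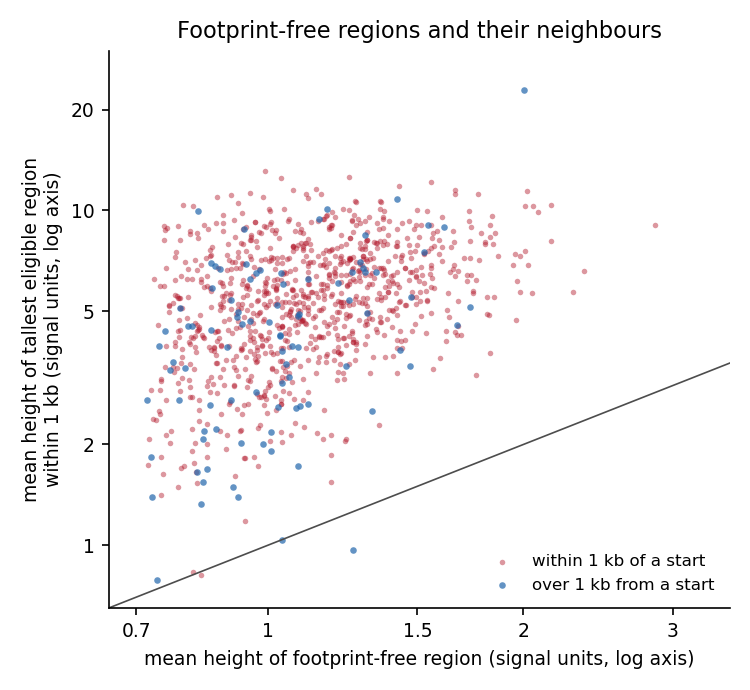
Mean height over both libraries of the tallest eligible region within 1 kb (y) against that of the footprint-free region (x), both in signal units on log axes, for the 1050 footprint-free regions with a neighbour; the line marks equal heights. All but 2 of the points lie above the line, at a median ratio of 4.78.

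Near starts the neighbour usually lay over the start itself. Of the 961, 959 had a neighbour, and in 851 of these (88.7%) the neighbour's centre was nearer to a start. The neighbour contained a start in 781 (81.4%), and its centre lay at a median of -43 bp from the nearest start (quartiles -104.5 and -8.0 bp), where negative values are upstream. The closest comparison is with the 3958 footprinted regions near starts, of the same height range, that also had a taller neighbour. Of those, 55.4% lay more than 150 bp downstream, 22.8% within 150 bp and 21.8% upstream, so they shared part of the downstream excess. The gap to the neighbour was listed throughout for 96.6% (replicate 1) and 97.0% (replicate 2) of footprint-free regions near starts with a taller neighbour, against 60.5% and 69.0% of these footprinted ones.

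Footprints were seldom far away. A footprint of either library lay within 100 bp of the edge of 22.2% of the footprint-free regions, within 500 bp of 94.9% and within 1 kb of 97.6%. Of 12800 protein-coding genes with an eligible region within 1 kb of a start, 1051 (8.21%) had a footprint-free one, and 1047 of these also had a footprinted one. Of all 12800 genes 99.97% had a footprinted one, so that count says nothing particular about them. The other 4 were Cpeb4 (1.34 and 1.33 in replicates 1 and 2), Optc (1.25 and 1.12), Prelid1 (1.00 and 0.907) and Thpo (0.855 and 0.780), named after their values were seen.

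The highest footprint-free region near a start was at Kctd6, which encodes an adaptor of cullin ubiquitin ligases. It covered chr14:8214281-8214580 and had heights of 3.20 and 2.52 in replicates 1 and 2, beside a neighbour of 9.06. It differed from most others in that it contained a start, with its centre at -71 bp. Ptp4a2, a phosphatase gene, followed with 2.58 and 2.13 (chr4:129820481-129820940) and also contained a start. At Fgfr1op2 the heights were 2.34 and 2.24, with the centre 330 bp downstream, in an intron. GC content was 80.7% at Kctd6, 74.3% at Ptp4a2 and 64.0% at Fgfr1op2.

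The next highest near starts were at Gtf2ird2, Rbm39, Hexim2, Zbtb7a, Ppp6r1, Ahi1, Pi4ka, Cited2 and Btbd10, with mean heights of 2.16 down to 2.01. Rbm39 encodes a splicing factor (2.28 and 2.03 in replicates 1 and 2), and Hexim2 an inhibitor of the elongation kinase P-TEFb (1.93 and 2.23). Zbtb7a encodes a zinc finger transcription factor (2.13 and 1.98). Cited2, a coactivator gene needed for adrenal development in mice, carried its region over an exon, with the centre 989 bp downstream of the start (2.07 and 1.95, width 780 bp). The 9 neighbours of these regions were between 5.67 and 11.4 high. Gtf2ird2, Rbm39, Hexim2 and Zbtb7a contained a start, as Kctd6 and Ptp4a2 did.

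Genes of the organ were present in small numbers. On 12 lists of 177 genes for adrenal and control functions, 118 genes had an eligible region within 1 kb of a start and 14 of them had a footprint-free one, beside 8.21% of all such genes. The count was 1 of 16 for adrenal steroidogenesis, 1 of 16 for cholesterol synthesis, 1 of 10 for cortical zonation and capsule, and 1 of 10 for chromaffin cells. It was 0 of 5 for macrophages, 0 of 7 for endothelium, 0 of 4 for fibroblasts and mural cells, and 0 of 7 for adipocytes. Immediate early genes, which respond to stimuli within minutes, had 6 of 14. Clock genes had 2 of 13, housekeeping genes 1 of 14 and hepatocyte genes 1 of 2.

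The gene of steroidogenesis was Tspo, which encodes a cholesterol-binding protein of the outer mitochondrial membrane, with 0.823 and 1.26 in replicates 1 and 2 and its centre 186 bp downstream. Srebf2, the transcription factor of sterol synthesis, had 1.65 and 1.31, over a start. Ctnnb1, which encodes beta-catenin, had 0.982 and 0.960, at 573 bp downstream. Slc18a1, whose product loads catecholamines into chromaffin granules, had 0.977 and 1.25, in a region that also lay within Atp6v1b2. The hepatocyte gene was Apoh, and its region (1.19 and 1.11) lay inside Prkca as well. All of these regions had a taller neighbour, from 2.88 at Tspo to 10.9 at Slc18a1.

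The immediate early genes were Junb (1.75 and 1.71 in replicates 1 and 2), Jund (1.59 and 1.73), Atf3 (1.63 and 1.84), Nr4a2 (1.38 and 1.38), Egr2 (0.749 and 0.870) and Egr3 (0.828 and 0.795). Junb and Jund encode AP-1 subunits, Atf3 a bZIP factor, Nr4a2 an orphan nuclear receptor, and Egr2 and Egr3 zinc finger factors. In Junb, Jund, Atf3 and Nr4a2 the region lay downstream of the start within the gene, at 957, 532, 649 and 292 bp. The Egr2 and Egr3 regions lay upstream of the nearest start, at -928 and -1002 bp. The Egr2 region was still inside the annotated gene, in an intron, and 95.6% of its 31-base stretches were unique. The Egr3 region lay between protein-coding genes. The clock genes Per1 (0.834 and 0.847) and Cry1 (1.15 and 1.10), both repressors of the circadian loop, had their regions 564 and 563 bp downstream. Gapdh, a glycolytic enzyme gene, had 1 region on each side of its start, with 0.812 and 0.757 downstream and 0.850 and 1.15 upstream. As a check of the tissue label, a promoter peak in both libraries was found for 5 of 5 cortex markers and 3 of 5 medulla markers, against 0 of 4 liver markers. Th and Dbh were the medulla markers without such a peak, and Chga, Chgb and Slc18a1 those with one. Of the 14 genes on the hepatocyte list, 2 had one.

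Footprint-free regions were richer in GC and CpG than footprinted ones. They had a median GC content of 62.8% (quartiles 57.3 and 67.6), against 57.3% in footprinted regions, a difference of 5.49 percentage points, and 55.3% in those of the same height range. The ratio of observed to expected CpG had a median of 0.699, against 0.453 in footprinted regions (a difference of 0.246) and 0.340 in the same height range. A GC content of at least 50% with a CpG ratio of at least 0.6, as in a CpG island, was found in 64.5% of footprint-free regions, against 38.0% of footprinted ones and 38.6% of all eligible ones. Most of this went with position. Near starts, the GC medians were 63.7% in footprint-free and 65.5% in footprinted regions, and 69.5% and 76.7% were island-like. More than 1 kb from starts, 23.1% and 10.5% were.

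The share of regions without any repeated stretch was close to that of footprinted regions. Every 31-base stretch occurred once in the reference in 90.6% of them (95% interval 88.7 to 92.3%), against 91.2% of footprinted regions and 91.2% of all eligible ones, a difference of -0.61 percentage points that lay within the interval. The exception among the highest was a region 60960 bp from the start of Gm15319, where 31.2% of the 31-base stretches were unique and 1 occurred 8 times. It had heights of 1.73 and 2.28 in replicates 1 and 2. Its neighbour, at 22.9, was the tallest of all 1050 neighbours.

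CTCF matches were rare, and how far this set the regions apart depended on width. The CTCF consensus, searched on both strands of the central 150 bp, was found in 9 of 1078 footprint-free regions (0.835%, 0.382 to 1.58%), against 13.7% of footprinted regions, 13.0% of those of the same height range and 13.4% of all eligible ones. In flanking windows 1 kb to each side of the footprint-free regions it was found in 0.557% of 2156, so the footprint-free centres held the motif about as often as their flanks. The gap to footprinted regions was -12.9 percentage points. It was smaller near starts, at 0.728% and 3.37%, and larger away from them, at 1.71% (2 of 117) and 21%. It was also larger in narrow regions than in wide ones. Over 300 bp wide, the class of 794 of the 1078, matches were in 0.504% of footprint-free centres and 0.626% of footprinted centres of the same height range, a difference within the interval of the first (0.137 to 1.28%). Over the whole length of these wide regions they were in 1.26% and 2.6%. Up to 200 bp wide, they were in 1 of 48 footprint-free and 23.6% of footprinted centres. A match is a description of the letters, not of bound protein.

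Motifs of common promoter factors were less frequent than in all footprinted regions near starts, but not in every closer comparison. Within 1 kb of a start, the SP/KLF motif GGGCGGG was found in 14.0% of footprint-free centres (135 of 961, 11.9 to 16.4%), against 35.5% of footprinted ones. The NFY motif CCAATC was in 3.02% against 12%, the ETS motif CCGGAAG in 3.33% against 9.97%, and the NRF1 motif in 0.624% against 6.57%. The CREB and ATF motif TGACGTCA was in 0.104% (1 of 961) against 2.36%. Footprinted regions near starts with a taller neighbour and of the same height range were closer, with 19.9% for SP/KLF, 4.65% for NFY, 3.08% for ETS, 0.935% for NRF1 and 1.59% for CTCF. The ETS share of footprint-free regions was thus not below theirs. At matched height but any position, the SP/KLF motif was in more footprint-free than footprinted centres, at 12.2% and 7.44% for a lower height of 0.7 to 1.0 and 16.0% and 10.9% from 1.0 to 1.5, and ETS likewise, at 3.04% and 1.73%, then 3.39% and 2.06%. Of all eligible regions, 18.3% held the SP/KLF motif, 7.77% the NFY, 5.14% the ETS, 3.02% the NRF1 and 1.24% the CREB and ATF motif. Each motif was counted on its own, on both strands, so a base can belong to more than 1.

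**Figure D5:**
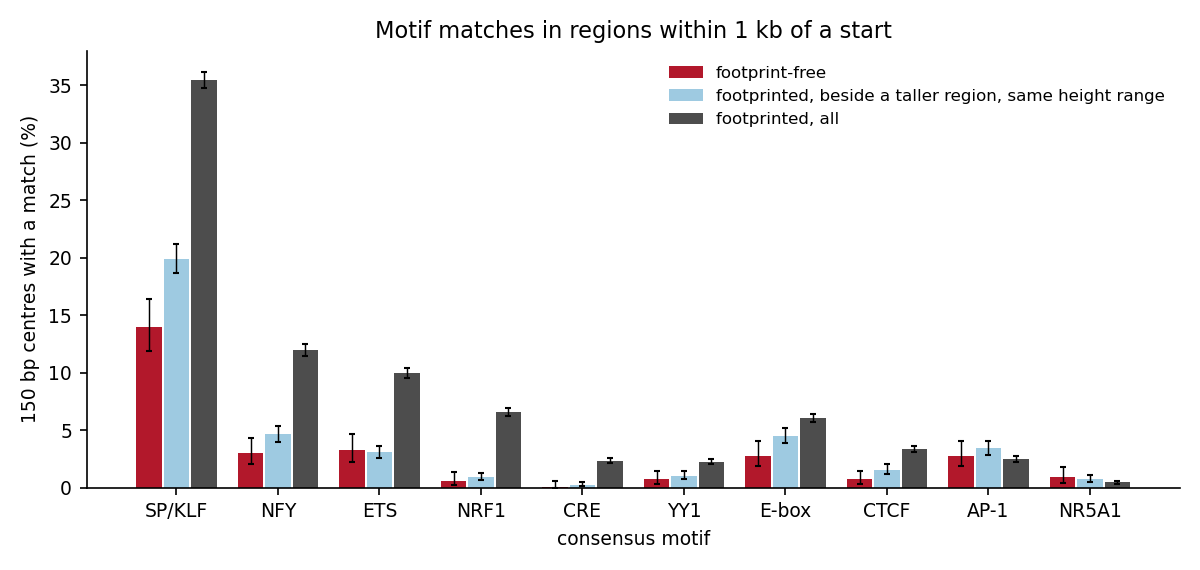
Percent of 150 bp region centres near protein-coding starts with a match to each of 10 consensus motifs on either strand, for footprint-free regions (n = 961), footprinted regions beside a taller region in the same height range (n = 3958) and all footprinted regions (n = 17657); bars carry exact 95% binomial intervals. The red bar for SP/KLF is at 14.0%, against 19.9% and 35.5%, and the bars for AP-1 are at 2.81%, 3.44% and 2.52%.

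For the NR5A1, AP-1 and GATA motifs the comparison also turned on position and height. The NR5A1 motif CAAGGTCA, bound by the steroidogenic factor SF-1, was in 12 of 1078 footprint-free centres (1.11%), against 1.17% of footprinted ones and 1.17% of all eligible ones. These sets differ in position, since 89.1% of footprint-free regions lay near starts. Of all eligible regions near starts, 0.489% held the NR5A1 motif. With a lower height of 0.7 to 1.0 it was in 0.537% (3 of 559) and 2.05%, and from 1.0 to 1.5 in 1.81% and 1.56%. The AP-1 motif TGANTCA was in 3.53%, against 6.29% of footprinted and 6.22% of eligible ones. Within 1 kb of a start it was in 2.81% and 2.52%, and away from starts in 9.40% and 8.96%. At matched height it was less frequent in footprint-free centres, at 3.58% and 10.5% from 0.7 to 1.0 and 3.61% and 7.87% from 1.0 to 1.5. The GATA motif AGATAAG was in 4 of 1078 (0.371%, 0.101 to 0.947%), against 0.916% of footprinted ones and 0.902% of all eligible ones, both inside that interval. Of all eligible regions near starts, 0.478% held the GATA motif. With a lower height of 0.7 to 1.0 it was in 0.358% of footprint-free and 1.35% of footprinted centres. From 1.0 to 1.5 the shares were 0.451% and 1.07%. Of the 25 motifs searched, RFX, REST and HNF4 were found in 0 of 1078 footprint-free centres (interval 0 to 0.342% for each). They were in 0.216%, 0.193% and 0.0610% of footprinted ones, and in 0.211%, 0.188% and 0.0595% of all eligible ones. All of these shares lay inside that interval, so the lack of a match did not set footprint-free regions apart. The highest footprint-free regions with a CTCF, an NR5A1 and an AP-1 match, whose printed stretch held at most 30 bases of UTR, are shown with the match in capitals.
Rcor1 footprint-free region: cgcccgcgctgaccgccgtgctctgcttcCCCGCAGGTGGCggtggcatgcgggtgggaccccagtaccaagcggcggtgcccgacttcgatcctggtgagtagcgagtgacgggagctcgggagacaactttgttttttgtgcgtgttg
Plekha1 footprint-free region: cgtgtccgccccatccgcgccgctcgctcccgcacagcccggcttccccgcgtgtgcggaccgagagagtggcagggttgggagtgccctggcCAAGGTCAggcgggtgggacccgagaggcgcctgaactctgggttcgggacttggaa
Ahi1 footprint-free region: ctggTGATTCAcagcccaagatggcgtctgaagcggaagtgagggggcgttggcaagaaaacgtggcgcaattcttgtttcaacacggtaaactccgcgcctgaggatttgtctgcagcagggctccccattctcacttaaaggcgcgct
The CTCF match lay at Rcor1, which encodes the corepressor CoREST (chr12:111039926-111040075), in a region with heights of 1.93 and 1.36 in replicates 1 and 2. The NR5A1 match lay at Plekha1, which encodes a phosphoinositide-binding protein (chr7:130866296-130866445), with 1.71 and 1.54. The AP-1 match lay 167 bp from a start of Ahi1, a gene of the ciliary transition zone (chr10:20952156-20952305), with 2.00 and 2.05. These stretches held a consensus sequence without a listed footprint over it in either library.

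Height, width, nearness to a start, GC content, uniqueness and a CTCF match were put side by side in a logistic regression of footprint absence. It was fitted once per library across all eligible regions. A taller neighbour was not among these features, so position was not separated from it. With the other features of the fit held equal, being within 1 kb of a start multiplied the odds of having no footprint by 5.74 in replicate 1 and 7.41 in replicate 2 (log odds 1.88 ± 0.181, SD over the 2 libraries). A doubling of height multiplied the odds by 0.133 and 0.123. That is 1 slope over all heights, whereas the share free in both libraries was flat for lower heights of 0.7 to 1.2 and fell only above. A doubling of width multiplied the odds by 1.35 and 1.41. A CTCF match multiplied them by 0.200 and 0.247 (log odds -1.5 ± 0.15). For GC content the libraries differed, with log odds of 0.422 and 0.0725 per 10 percentage points. Unique sequence had log odds of 0.237 and 0.197. Coefficients describe these 2 libraries, and no p-value is given since regions are not replicates.

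The 117 footprint-free regions more than 1 kb from a start were lower and more varied. They had median heights of 0.934 and 0.982 in replicates 1 and 2 and a median width of 320 bp. A neighbour lay within 1 kb of 91 (77.8%), against 16.6% of footprinted regions that far from starts and of the same height range. In 32 of the 117 (27.4%) a transcript start of another biotype lay within 1 kb. The highest after Gm15319 were near Creb3l1 and Ern1, printed above, then in an intron of Ccnd3 (1.29 and 1.93), near Zfat (2.00 and 1.09) and near Svil (1.55 and 1.5). Further down were Wsb1, Zfp395, Spocd1, Cstad, Tomm7 and an intron of Arhgap23, with mean heights of 1.48 down to 1.32. All of these 12 had a neighbour, the lowest at 2.51 near Arhgap23.

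A small group stood alone. For 28 footprint-free regions no eligible region lay within 1 kb, and their values stood apart from the other footprint-free regions. They were narrow, with a median width of 185.5 bp, and low, with median heights of 0.810 and 0.919 in replicates 1 and 2. Their width was near the median of 200 bp of footprinted regions of the same height range. All 28 consisted of unique 31-base stretches, 14 had their centre in an intron and 8 in an exon, and 2 of the 8 lay within 1 kb of a start. A footprint lay within 1 kb of 5 of them (17.9%). The highest was in an intron of Tns1, a focal adhesion gene (1.23 and 1.23), and others were in introns of Alas1, the first enzyme of haem synthesis (0.993 and 1.09), and Ptprg (0.977 and 0.982). One in an intron of Gml2 (chr15:74834035-74834131, 0.807 and 1.16) lay 7512 bp from the start of Cyp11b1, the cortical enzyme of the last step to corticosterone. It was 97 bp wide, and the longest listed stretch that overlapped it ran over 52 bp in replicate 1 and 59 bp in replicate 2.

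The authors' shorter peak list set these lone regions apart further. Of the 28, 4 (14.3%) had a peak of the shorter list in both libraries, against 82.7% of footprinted regions of the same height range without a neighbour. Among the lone regions named above, Ptprg had one in both libraries, and those in Tns1, Alas1 and Gml2 had one in neither. Over the whole set the share was 86.5% (932 of 1078, 84.3 to 88.4%), against 88.0% of footprinted regions and 87.9% of all eligible ones, a difference of -1.51 percentage points. Near starts it was 90.0% and 93.7%. The shorter list comes from the same signal as the heights, so it is a description and not an independent check.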

How the data were processed

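DNase-seq was measured in 2 libraries. The authors made peak, footprint and false discovery rate files for each library separately from alignments to mm10 (GRCm38), per the file index text; which aligner and callers were run is not given in the sources used here. Peak heights are a depth-normalised signal computed by the authors. The deposited footprint score was 0.01 in every row and was not used. False discovery rates (q-values) deposited by the authors list stretches under 0.05. The longer of 2 deposited peak lists per library was used (98630 and 118249 peaks, replicates 1 and 2), with 228557 and 273271 footprints. Depth is unknown beyond the steps of the heights (0.00531 and 0.00750 signal units), with 100% of heights within 0.05 of a whole step, and 1 step is taken as 1 cut.

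Regions, positions (GENCODE vM21, 21802 protein-coding genes, 58610 transcript starts), composition, copies of 31-mers in the reference and 25 consensus motifs were computed with python 3.11.15, numpy 2.4.6, pandas 2.3.3, numba 0.67.0 and scipy 1.17.1; logistic regressions with statsmodels 0.14.6; plots with matplotlib 3.10.9. The scripts were tested on simulated data. The 27 gene symbols with more than 1 record were left out. Sequences are those of the reference, and alleles of the hybrid strain were not examined. Named regions were the 12 highest near and far from starts, those at the height threshold, those with the most uneven heights and those at listed genes. Members, lists and tests were chosen with earlier results of these data known; the neighbours and gaps, the pairs printed and the limit on UTR bases were chosen after the values were seen. Alternatives were each library alone, other thresholds, footprint and peak overlaps, the shorter list, and other windows and motif settings.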

Additional observations from a re-analysis of the deposited data

How the results depend on the processing

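The values below are differences, footprint-free minus footprinted regions, unless stated. Of 81 such differences under alternatives, 75 kept their sign and 6 changed it, all in the 2 smallest differences, those of uniqueness and of the shorter list; the cause was not tested. With each library used alone, a footprint-free region needed a peak, and the absence of any footprint, in 1 library only. The number of footprint-free regions then lay between 3650 and 4365 (7.11% to 7.43% of eligible regions). The difference in percent near starts lay between 29.3 and 35.3 percentage points, in GC between 3.62 and 4.12, in CpG ratio between 0.166 and 0.228, in CTCF between -12.6 and -11.1 and in the shorter list between -14.9 and -13.6. For taller neighbours it lay between 63.1 and 67.9, for the downstream side between 34.1 and 35.3, and for uniqueness, with its sign changed, between 1.05 and 1.81.

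A height threshold of 0.5 gave 2.78% footprint-free regions, and differences of 4.8 in GC, -11.5 in CTCF, -3.01 in the shorter list, 74.3 in taller neighbours and 35.4 in the downstream side. A threshold of 1 gave 519 regions (1.57%), and 6.50, -14.4, 0.61 (sign changed), 83.2 and 42.0 in the same order. A threshold of 2 left 5 regions (0.0276%), all of them within 1 kb of a start, with 39.9 near starts, 5.99 in GC, -12.3 in uniqueness, -16.1 in CTCF, 0.0276 in the shorter list (sign changed), 88.9 in taller neighbours and 9.64 in the downstream side.

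Allowing no footprint within 50 bp gave 0.0122 in uniqueness (sign changed) and 38.6 in the downstream side. The shorter peak list gave 5.98 in GC, -14.0 in CTCF, 83.1 in taller neighbours and 40.5 in the downstream side. Peaks overlapping by 50% of both gave 1.99% footprint-free regions, -1.25 in uniqueness and 40.2 in the downstream side. A window of 500 bp around starts gave 39.3. Stretches of 24 bases gave -1.87 in uniqueness, and asking for at least 50% of 31-base stretches to be unique gave 0.35 (sign changed). A looser CTCF consensus gave -15.2. Neighbours within 2 kb gave 75.6, and the 5′ ends of genes in place of transcript starts gave 27.6 in the downstream side. With height and width only beside each feature, the mean log odds were 0.693 per 10 points of GC, 0.263 for uniqueness and -1.97 for CTCF. The alternatives for neighbours and sides were chosen after seeing the data.

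No paired analysis was possible because both libraries belong to 1 group. Regions of 1 tissue are not replicates, the labels do not separate the animals of the 2 libraries, and heights, footprints and both peak lists come from the same reads.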
